A study of Mus musculus with 16 samples.

Results

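Lzts1 and Lzts2 encode leucine zipper proteins of the fezzin family, and the data on them came from 6 of the 60273 gene probes on the array. The array's own gene name column gave Lzts1 for 3 probes and Lzts2 for none. A further 2 probes, 1 of Lzts1 and 1 of Lzts2, were named through the RefSeq accession they carry, and 1 more of Lzts1 through the other RefSeq accessions listed for it. Lzts1 had drawn attention because of its fall after 6 h of treatment, so that the genes were chosen by their measured log2 differences at 6 h, which are given here as a description, without a test. They are 2 of the 29231 genes that could be tested.

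RNA came from CGR8 mouse embryonic stem cells (mESCs) that carry a GFP reporter under the Myh6 promoter, which is active in cardiomyocytes, and that were differentiating spontaneously towards heart cells in multiwell plates. From day 4 on, cultures received the vehicle DMSO, 0.25 mg/ml of WS1442 or 0.1 mg/ml of the MeOH eluate, and were harvested after 6 h or 24 h. WS1442 is a dry ethanolic extract of hawthorn leaf with flower. The MeOH eluate is the part of it that methanol released from a Sephadex column, and it is enriched in oligomeric procyanidins. Each time point had 2 DMSO, 3 WS1442 and 3 MeOH arrays, 16 in all, and all cells were of 1 line. All 8 arrays of a time point shared 1 slide, so time point and slide cannot be told apart, and levels were compared only within a time point. Between 55.1% and 63.0% of the gene spots of an array were well above background, and RNA integrity numbers lay between 8.6 and 10. All 8 markers each of pluripotent cells, mesoderm and cardiac progenitors were well above background on every array. Among cardiomyocyte markers, Tnnt2, Actn2, Myl7, Myl2 and Ryr2 reached this level on all 16 arrays and Tnni3 on 14. Myh6 did so on 3 and Myh7 on 0 of the 16 arrays. These 2 defining genes of contracting cardiomyocytes were thus largely or wholly below detection.

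Fezzins are coiled-coil proteins that have been described at the postsynaptic density of neurons, where they bind scaffolds of the Shank and SPAR (Sipa1l) families. LZTS1, also known as FEZ1 or PSD-Zip70, is a putative tumour suppressor that binds the mitotic kinase CDK1 and, in the developing brain, acts at the apical junctions from which newborn neurons detach. LZTS2, also known as LAPSER1, binds beta-catenin, the effector of canonical Wnt signalling, and restrains the microtubule severing enzyme katanin. Lzts1 has also been filed under signalling by bone morphogenetic proteins (BMPs).

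The probe sequences are shown because the 5 Lzts1 probes gave very different signals, and each is named by the transcript it was designed for:

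Lzts1 ENSMUST00000185176: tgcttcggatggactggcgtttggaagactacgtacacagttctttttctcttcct

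Lzts1 XM_006509606: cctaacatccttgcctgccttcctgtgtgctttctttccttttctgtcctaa

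Lzts1 NM_199364: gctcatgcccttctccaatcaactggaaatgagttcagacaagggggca

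Lzts1 ENSMUST00000181890: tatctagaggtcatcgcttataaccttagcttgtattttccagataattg

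Lzts1 ENSMUST00000184961: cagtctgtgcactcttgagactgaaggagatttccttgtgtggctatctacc

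Lzts2 NM_001130525: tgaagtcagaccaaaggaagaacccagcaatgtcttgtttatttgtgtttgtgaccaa

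No pair of these sequences shared a run of more than 7 bases, so each probe read its own stretch of RNA. The array design gives mm9 positions for 3 of them, all on the minus strand of chromosome 8. The ENSMUST00000185176 probe lay at chr8:71656693-71656752, the ENSMUST00000181890 probe at chr8:71690783-71690842 and the ENSMUST00000184961 probe at chr8:71706128-71706187. Along the minus strand the last 2 therefore lay 34.09 kb and 49.435 kb upstream of the first. These intervals span 60 bases, while the sequences listed for the 6 probes hold 49 to 58. The NM_199364, XM_006509606 and Lzts2 probes have no position in the design, and the files do not say whether a probe lies in coding sequence, an untranslated part or an intron. The XM_006509606 probe lists 3 predicted Lzts1 transcripts and not NM_199364, whereas the NM_199364 probe lists both. The Lzts2 probe lists 5 transcripts of its gene.

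Of the 6 probes, 4 were well above background on all 16 arrays and were among the 36716 probes tested. The ENSMUST00000181890 and ENSMUST00000184961 probes were well above background on 0 of 16 arrays. Their log2 signals lay between 1.27 and 1.37 and between 1.27 and 1.80, below the lowest signal of any probe that was well above background (3.11 to 4.01, depending on the array), and they were not tested. Among the kept probes of each array, the ENSMUST00000185176 probe lay between percentiles 58.4 and 89.3, the XM_006509606 probe between 46.4 and 67.6, the NM_199364 probe between 24.5 and 38.3, and the Lzts2 probe between 89.8 and 94.0. Probes differ in binding strength, so these positions do not rank the transcripts by abundance.

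**Figure D1:**
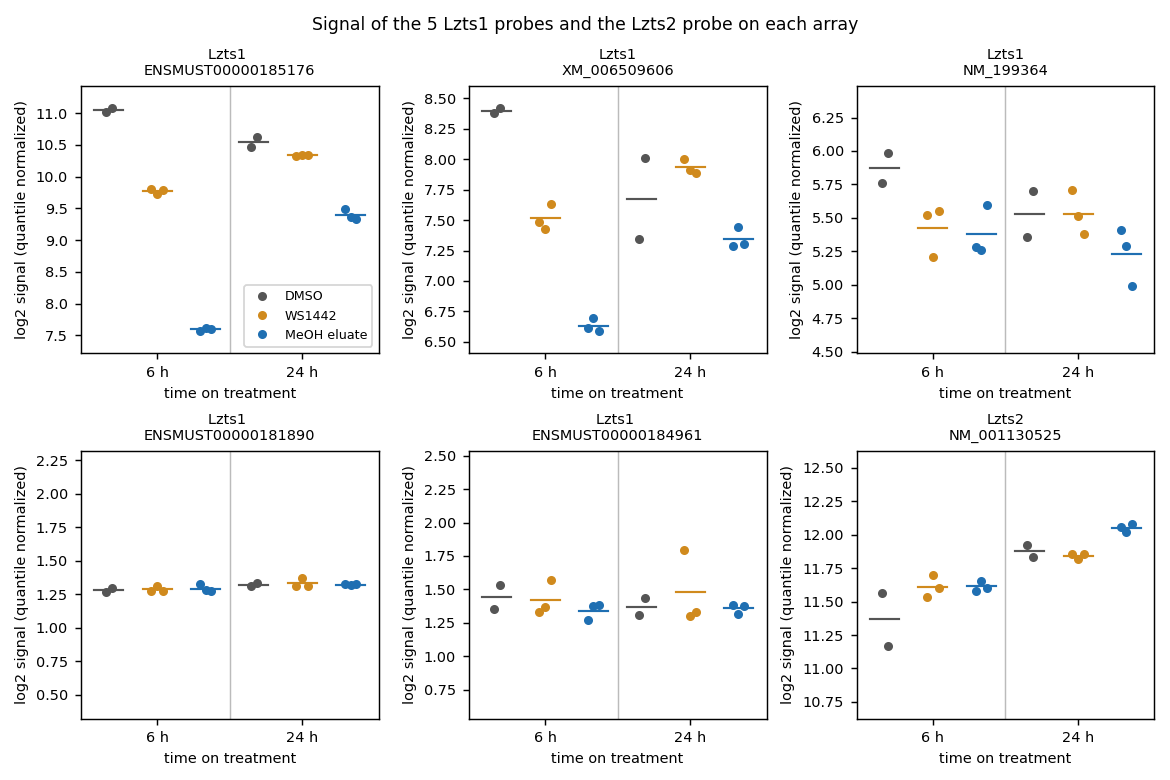
Log2 signal after quantile normalization (y axis) of each Lzts1 and Lzts2 probe on every array, by time point and treatment (x axis). Points are arrays, horizontal lines are group means, and the y axes have different ranges. At 6 h the ENSMUST00000185176 probe falls from about 11.05 with DMSO to 7.60 with MeOH eluate, while the 2 probes in the lower row on the left and middle stay near background.

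At 6 h, Lzts1 read by the ENSMUST00000185176 probe stood at a log2 signal of 11.02 and 11.08 on the DMSO arrays. It stood at 9.81, 9.73 and 9.79 with WS1442 and at 7.57, 7.62 and 7.60 with MeOH eluate. The 3 groups formed separate steps, with the DMSO arrays highest, the MeOH arrays lowest and the spread within a group (SD 0.03 to 0.04) far narrower than the gaps. The difference of the means from DMSO was -1.27 with WS1442, a 2.42-fold lower signal, and -3.45 with MeOH eluate, a 10.9-fold lower signal. Of the 36716 probes, this one had the largest fall with MeOH eluate and the 45th largest with WS1442, which is how Lzts1 came to notice.

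The XM_006509606 probe followed the same order with smaller steps. Its 6 h log2 signals were 8.38 and 8.42 with DMSO, 7.49, 7.43 and 7.63 with WS1442, and 6.61, 6.70 and 6.59 with MeOH eluate. The groups again did not overlap. The difference from DMSO was -0.88 with WS1442 and -1.77 with MeOH eluate, which are 1.85-fold and 3.40-fold lower signals, and the eluate value ranked 36th from the most lowered.

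The NM_199364 probe was the dimmest of the 4 and moved least among the Lzts1 probes. It read 5.76 and 5.98 with DMSO, 5.52, 5.20 and 5.55 with WS1442, and 5.28, 5.26 and 5.59 with MeOH eluate at 6 h. Both treatments lay below DMSO, with log2 differences of -0.45 for the extract and -0.49 for the eluate, and the 2 treated groups overlapped. Its rank from the most lowered was 1900 with WS1442 and 2862 with MeOH eluate. The Lzts1 probes thus shared a direction at 6 h, with log2 differences under the eluate from -0.49 to -3.45.

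The means of Lzts2 were higher, not lower, with the treatments. Its 6 h log2 signals were 11.56 and 11.17 with DMSO, 11.54, 11.70 and 11.60 with WS1442, and 11.58, 11.66 and 11.60 with MeOH eluate. The DMSO arrays were 0.39 apart, more than the mean difference of 0.24 with WS1442 and 0.25 with MeOH eluate. The MeOH arrays lay above both DMSO arrays, the closest pair being 11.56 and 11.58, and the WS1442 arrays overlapped with DMSO.

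In counts, the WS1442 arrays lay wholly below the DMSO arrays at 6 h for 3 of the 4 probes, all of Lzts1, where 15.1% of all tested probes did so, and above for 0 (20%). With MeOH eluate the same 3 probes lay below (25.3% of all probes) and Lzts2 above (24%). These 6 h counts follow from how the genes were chosen and nothing is read from them.

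At 24 h the data are from other cultures, and here the differences were tested. The ENSMUST00000185176 probe read 10.47 and 10.62 with DMSO, 10.33, 10.34 and 10.34 with WS1442, and 9.49, 9.37 and 9.33 with MeOH eluate. The order of the groups was that of 6 h, with WS1442 just below DMSO and the eluate clearly lower than either. With MeOH eluate Lzts1 was downregulated, with a log2 difference of -1.15 (SE 0.06, 95% interval -1.28 to -1.02, adjusted p = 3.03e-08 by limma), a 2.22-fold lower signal, and it ranked 325th from the most lowered probe. With WS1442 the difference was -0.21 (SE 0.06, 95% interval -0.34 to -0.08, adjusted p = 0.0212 by limma), a 1.16-fold lower signal. The WS1442 call was lost without DMSO replicate 2 (adjusted p = 0.197), without WS1442 replicate 3 (0.052) and with a term for the slide row (0.0515), and Student's t-test adjusted over all probes gave 0.152. That t-test also left the eluate difference just short of the threshold, at an adjusted p of 0.0578.

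The other Lzts1 probes gave no call against DMSO at 24 h. The XM_006509606 probe read 7.35 and 8.01 with DMSO, 8.00, 7.91 and 7.89 with WS1442, and 7.29, 7.45 and 7.31 with MeOH eluate. The DMSO arrays were 0.66 apart, with 1 beside the WS1442 arrays and 1 beside the MeOH arrays. The difference from DMSO was 0.26 with WS1442 (95% interval -0.04 to 0.55, adjusted p = 0.203 by limma) and -0.33 with MeOH eluate (95% interval -0.63 to -0.03, adjusted p = 0.128 by limma). Either DMSO array decided these values. Without DMSO replicate 1 they became -0.07 (adjusted p = 0.755) and -0.66 (adjusted p = 0.00127), and without DMSO replicate 2 they became 0.59 (adjusted p = 0.0022) and 0.00 (adjusted p = 0.993) by limma.

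The NM_199364 probe read 5.35 and 5.70 with DMSO, 5.71, 5.51 and 5.38 with WS1442, and 5.41, 5.29 and 4.99 with MeOH eluate at 24 h. All 3 groups overlapped. The limma difference was 0.00 with WS1442 (95% interval -0.38 to 0.39, adjusted p = 0.99) and -0.30 with MeOH eluate (95% interval -0.69 to 0.09, adjusted p = 0.316). A change of up to 0.38 down or 0.39 up with WS1442 lay within that interval.

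Lzts2 read 11.92 and 11.83 with DMSO, 11.85, 11.82 and 11.86 with WS1442, and 12.06, 12.02 and 12.08 with MeOH eluate at 24 h. The MeOH arrays were the highest and lay apart from the others, while WS1442 and DMSO overlapped. The difference from DMSO was 0.18 with MeOH eluate (SE 0.08, 95% interval 0.00 to 0.35, adjusted p = 0.172 by limma) and -0.03 with WS1442 (95% interval -0.21 to 0.14, adjusted p = 0.82). The eluate value passed the threshold when the 8 arrays of 24 h were fitted alone (adjusted p = 0.0285 by limma).

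So 1 of the 4 probes was called lower with WS1442 at 24 h, where 12.2% of all tested probes were, and 1 of the 4 with MeOH eluate, where 8.2% were. It was the ENSMUST00000185176 probe of Lzts1 both times, and 0 of the 4 were called higher (11.3% and 8.92% of all probes). Without adjustment for the number of probes, limma also passed the XM_006509606 probe as lower and Lzts2 as higher with the eluate, which made 3 of the 4 probes (28.9% of all probes passed so), and none further with WS1442 (35.3%). The arrays of WS1442 lay wholly below those of DMSO for 1 of the 4 probes (25.2% of all probes) and wholly above for 0 (25.4%), and those of MeOH eluate lay below for 1 (21.7%) and above for 1 (21.6%).

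**Figure D2:**
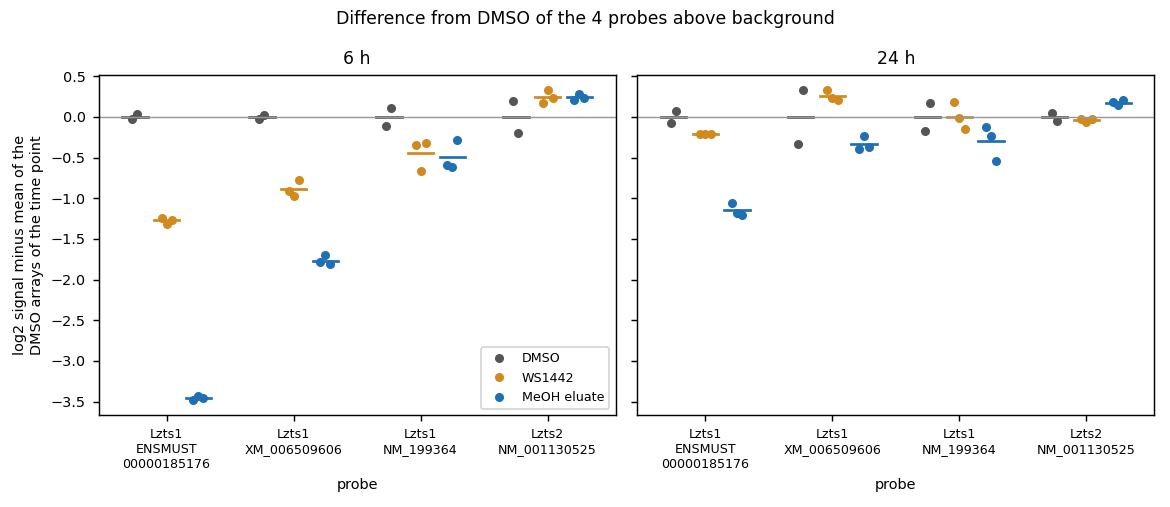
Log2 signal minus the mean of the DMSO arrays of the same time point (y axis) for the 4 probes above background (x axis), at 6 h on the left and 24 h on the right. Points are arrays and lines are group means. With MeOH eluate the Lzts1 ENSMUST00000185176 probe lies at -3.45 at 6 h and at -1.15 at 24 h, and no treated array of Lzts2 is more than 0.33 from DMSO.

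MeOH eluate and WS1442 were also set against each other, at doses that differ (0.1 and 0.25 mg/ml), so that the comparison is of these treatments and not of equal amounts. At 24 h the eluate gave lower Lzts1 than the extract, with a log2 difference of -0.94 in the ENSMUST00000185176 probe (SE 0.05, adjusted p = 3.86e-07 by limma) and of -0.59 in the XM_006509606 probe (SE 0.12, adjusted p = 0.00649). The difference of means here does not involve the DMSO group, but its SE and adjusted p rest on the spread of all 6 groups. In both probes all 3 MeOH arrays lay below all 3 WS1442 arrays, as for 17.1% of all probes. The calls made 2 of the 4 probes, against 6.11% of all tested probes that were called lower. For the NM_199364 probe the difference was -0.30 (95% interval -0.65 to 0.05, adjusted p = 0.255). Lzts2 was 0.21 higher with the eluate than with the extract (95% interval 0.05 to 0.37, adjusted p = 0.0752 by limma), with all 3 MeOH arrays above (18.6% of all probes). Student's t-test, adjusted over all probes, gave 0.044 for the first of these Lzts1 differences and 0.0597 for the second. At 6 h, without a test, the same differences were -2.18 and -0.88 for these Lzts1 probes, -0.05 for NM_199364 and 0.00 for Lzts2.

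Set side by side, the log2 difference of the ENSMUST00000185176 probe from DMSO went with WS1442 from -1.27 at 6 h to -0.21 at 24 h, and with MeOH eluate from -3.45 to -1.15. That of the XM_006509606 probe went from -1.77 to -0.33 with the eluate. Each value is relative to the DMSO arrays of its own time point, which both treatments share. The change between the time points was not tested, because the 6 h values chose the gene.

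The RNA was extracted from whole cultures, in which fewer cells of a type and less RNA per cell cannot be told apart. Markers of several early cell types were also lower with the eluate at 6 h. Then the mean log2 signal of the 8 mesoderm markers lay between 8.21 and 8.34 with DMSO, between 8.09 and 8.26 with WS1442 and between 7.66 and 7.78 with MeOH eluate. That of the 6 tested endoderm markers (Ttr and Apoa1 were not above background) lay at 7.51 to 7.64, 7.16 to 7.37 and 6.63 to 6.78. The 7 tested neural progenitor markers (Pax3 was not above background) averaged 9.14 to 9.19, 8.90 to 9.01 and 8.74 to 8.79, and the 8 pluripotency markers 9.32 to 9.35, 8.98 to 9.23 and 8.96 to 9.13. In these 4 lists the MeOH arrays lay below the DMSO arrays, and the WS1442 arrays did so in all but the mesoderm list. The 6 tested neuron markers went the other way, at 9.45 to 9.52 with DMSO and 9.60 to 9.63 with MeOH eluate. The means of cardiac progenitor and cardiomyocyte markers overlapped between the MeOH and DMSO arrays. By limma 4 of 8 mesoderm, 4 of 6 endoderm, 3 of 7 neural progenitor and 3 of 8 pluripotency markers were downregulated with the eluate at 6 h, beside 8.35% of all genes. The upregulated ones were 0, 0, 1 and 0, beside 8.68%. Of the cardiac progenitor, cardiomyocyte and neuron markers, 2 of 8, 1 of 6 and 1 of 6 were upregulated, and 0, 1 and 0 downregulated. At 24 h the mesoderm mean was 8.35 to 8.36 with DMSO, 8.10 to 8.19 with WS1442 and 7.89 to 7.94 with MeOH eluate, and the endoderm mean was 8.15 to 8.24, 7.74 to 7.75 and 7.39 to 7.68. Of the pluripotency markers 0 of 8 were called with the eluate at 24 h, and of the neural progenitor markers 2 of 7 were lower and 2 higher. Then 3 of 8 cardiac progenitor and 2 of 6 cardiomyocyte markers were lower, and 2 of 6 neuron markers higher. Of all genes 8.55% were lower and 9.6% higher. The part of these cell type markers in the Lzts1 values was not tested.

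The genes whose pattern was most like that of each probe were sought among 17065 annotated genes by Pearson's r over the 16 arrays, after the mean of the time point was taken off each value. The r values are descriptions without a test, since the points share slides and treatments. For the ENSMUST00000185176 probe the first 5 were Ccnd1 (r = 0.984), which encodes cyclin D1 and serves G1 progression, Mixl1 (0.983) and Gsc (0.982), homeobox genes of the primitive streak, Dusp6 (0.979), a phosphatase that is a feedback target of FGF and ERK signalling, and Tdgf1 (0.969), the Nodal co-receptor Cripto. Within 6 h alone r was 0.992 to 0.998 for these, and within 24 h alone 0.902 to 0.965. With the eluate at 6 h their log2 differences from DMSO were -0.74 for Ccnd1, -2.39 for Mixl1, -2.66 for Gsc, -1.15 for Dusp6 and -1.17 for Tdgf1. The ENSMUST00000185176 probe had the largest fall of all 36716 probes there, so that none could fall further. Mixl1 and Gsc fell further than the XM_006509606 probe of Lzts1 (-1.77). At 24 h the eluate values of Ccnd1 (-0.29), Gsc (-0.79), Dusp6 (-0.56) and Tdgf1 (-0.69) were smaller in size than that of the ENSMUST00000185176 probe (-1.15). That of Mixl1 (-1.20) was about the same. Gsc was 0.24 above DMSO with WS1442 at 24 h, where the ENSMUST00000185176 probe stood at -0.21.

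**Figure D3:**
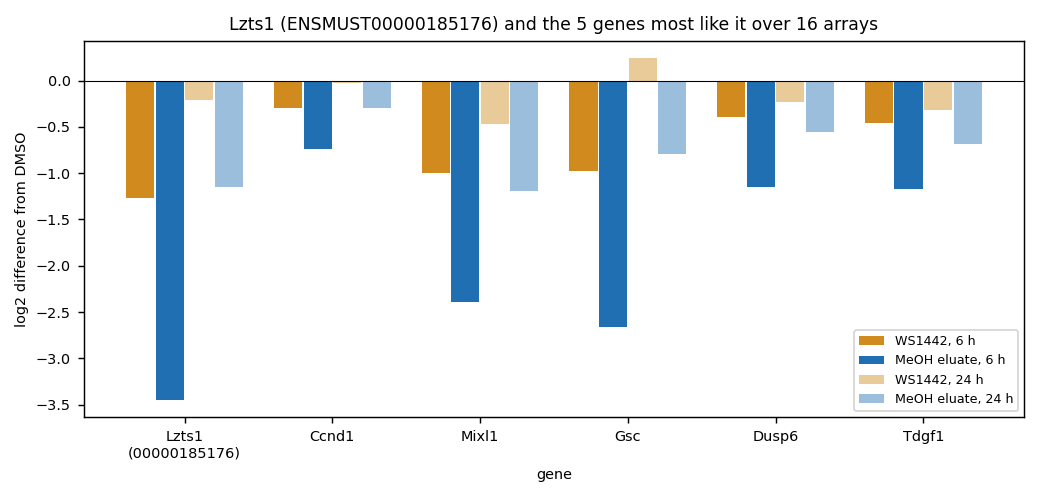
Log2 difference from DMSO of the same time point (y axis) for the ENSMUST00000185176 probe of Lzts1 and the 5 genes with the highest r to it (x axis). Bars are differences of group means, dark for 6 h and pale for 24 h. The MeOH bar of 6 h is the longest for each gene, from -0.74 for Ccnd1 to -3.45 for Lzts1.

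The XM_006509606 probe shared Gsc (r = 0.949) and Ccnd1 (0.927) with it and added Pcdhb3 (0.943), a clustered protocadherin, Apln (0.927), the ligand of the apelin receptor, and Krt26 (0.915), a keratin. For the dim NM_199364 probe r was lower, and no gene was shared with the other probes. Its list was Il4 (0.872), the cytokine interleukin 4, Sema3a (0.835), a secreted guidance cue, Cldn13 (0.793), a tight junction claudin, Aadacl4fm2 (0.781) and Tbc1d2b (0.778). Lzts2 was followed most closely by Arf3 (0.918), a GTPase of the secretory pathway, Tnfrsf10b (0.908), the death receptor for TRAIL, Relch (0.892), Cops5 (0.890), the catalytic subunit of the COP9 signalosome, and Lypla1 (0.889), a thioesterase that removes palmitate from proteins. All 5 of them had positive differences from DMSO, of 0.14 to 0.71 on the log2 scale with the treatments at 6 h and of 0.11 to 0.31 with the eluate at 24 h. Among the members, r over the 16 arrays was 0.947 between the ENSMUST00000185176 and XM_006509606 probes, 0.627 between the ENSMUST00000185176 and NM_199364 probes, and -0.587, -0.655 and -0.793 between Lzts2 and these Lzts1 probes in the order of their sequences above.

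Genes that lie next to Lzts1 in the RefSeq annotation (assembly GRCm38.p6) had smaller differences from DMSO at 6 h. Of the 3 nearest protein-coding genes on each side, Atp6v1b2, Slc18a1, Lpl, Zfp930, D130040H23Rik and Gm10033, 0 of 6 passed the limma test with WS1442 at 6 h (5.28% of all genes did) and 3 of 6 were lower with MeOH eluate, where 8.35% of all genes were. Those were Lpl, lipoprotein lipase (-0.34, adjusted p = 0.0238), Zfp930 (-0.25, adjusted p = 0.0105) and Gm10033 (-0.38, adjusted p = 0.041). With WS1442 at 24 h 2 of 6 were lower, beside 11.8% of all genes, and 0 higher. These were D130040H23Rik (-0.50, adjusted p = 0.00586 by limma) and Gm10033 (-0.40, adjusted p = 0.0249), where the ENSMUST00000185176 probe stood at -0.21. With the eluate at 24 h, Zfp930 was lower (-0.28, adjusted p = 0.00392) and Slc18a1, a vesicular monoamine transporter, was higher (1.55, SE 0.44, adjusted p = 0.0254). Of all genes 8.55% were lower and 9.6% higher there. Of 7 genes around Lzts2, 3 were higher and 1 lower with each treatment at 24 h. The shares of all genes were 12.9% and 11.8% with WS1442, and 9.6% and 8.55% with the eluate. Mrpl43, a protein of the mitochondrial ribosome, was higher in all 4 comparisons, by 0.15 to 0.23. Kazald1, a secreted protein with an immunoglobulin-like domain, was lower at 24 h with WS1442 (-0.82, adjusted p = 0.0162 by limma) and with MeOH eluate (-0.75, adjusted p = 0.0342). Sfxn3, a mitochondrial carrier, was higher at 24 h with WS1442 (0.57, adjusted p = 8.01e-05 by limma) and with MeOH eluate (0.58, adjusted p = 4.45e-05). Pdzd7, which overlaps Lzts2 in this annotation, was 1.17 higher with each treatment at 24 h (adjusted p = 0.0318 and 0.04), while Lzts2 itself was not called.

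Relatives and partners of the LZTS proteins were described through 7 lists of 82 genes, of which 81 could be tested, each by its brightest kept probe. With WS1442 at 6 h, 7 of the 81 were higher (8.64%) and 5 lower (6.17%) at an adjusted limma p under 0.05, beside 3.95% and 1.33% of all 29231 genes. With MeOH eluate at 6 h, 10 were higher (12.3%, beside 8.68% of all genes) and 20 lower (24.7%, beside 8.35%). At 24 h, 8 were higher and 15 lower with WS1442 (9.88% and 18.5%, beside 12.9% and 11.8%), and 11 higher and 17 lower with the eluate (13.6% and 21%, beside 9.6% and 8.55%). Scaling each array to its 75th percentile gave 4 higher and 19 lower with the eluate at 6 h, 4 and 17 with WS1442 at 24 h, and 7 and 18 with the eluate at 24 h. At 6 h the eluate's counts were 6 higher and 12 lower without DMSO replicate 1, the same without DMSO replicate 2, and 5 higher without MeOH replicate 3. Those of WS1442 at 6 h were 3 and 1 without DMSO replicate 1, 4 higher without DMSO replicate 2, and 3 and 3 without WS1442 replicate 3. Leaving out DMSO replicate 1 of 24 h gave lower counts of 9 with WS1442 and 11 with the eluate. These lists were not tested as sets.

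Among the remaining fezzins, Lzts3 (ProSAPiP1), which binds SPAR and Shank proteins, was 0.13 and 0.33 above DMSO at 6 h with WS1442 and MeOH eluate (adjusted p = 0.756 and 0.18), fell by 0.58 with WS1442 at 24 h (adjusted p = 0.016 by limma) and was 0.20 above DMSO with the eluate (adjusted p = 0.475). N4bp3, a fezzin that binds the ubiquitin ligase Nedd4, rose by 0.25 with MeOH eluate at 6 h (adjusted p = 0.00723 by limma, but 0.079 under 75th percentile scaling) and was not called otherwise.

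Of the 14 postsynaptic scaffold partners, 2 were lower and 0 higher with the eluate at 6 h, beside 8.35% and 8.68% of all genes. Both belong to the SPAR family, Sipa1l2 (-0.73, adjusted p = 6.04e-05 by limma) and Sipa1l1 (-0.40, adjusted p = 0.00566), and Sipa1l2 was also lower with WS1442 (-0.35, adjusted p = 0.0338 by limma). That WS1442 call was lost under 75th percentile scaling (adjusted p = 0.0708) and without the filter on dim probes (0.0605). At 24 h neither was called. The members that fell with the eluate were Dlg4, the scaffold PSD-95 (-0.41), and Homer1 (-0.28), beside 8.55% of all genes. With WS1442 at 24 h Dlg4 (-0.29) and Dlgap3 (-0.76) were lower, 2 of 14 beside 11.8% of all genes. The list's median difference with the eluate was -0.06 at 6 h and -0.03 at 24 h, beside 0.00 and 0.01 over all genes.

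Mitotic entry genes, listed because LZTS1 binds CDK1, had 5 of 13 members lower with the eluate at 6 h, and 1 higher. Of all genes 8.35% were lower and 8.68% higher in that comparison. The lower ones were Cdk1 itself (-0.25), its cyclin Ccnb1 (-0.17), the activating phosphatase Cdc25a (-0.21), and the kinase Plk1 (-0.37) with its activator partner Bora (-0.39). Cdc25b was 0.25 higher, a call lost under 75th percentile scaling (adjusted p = 0.115). The list's median with the eluate was -0.11 at 6 h and -0.05 at 24 h. At 24 h Ccna2 (-0.28) and Cdc25a (-0.24) were lower with it, beside 8.55% of all genes. With WS1442, 1 of 13 was called at 6 h (Cdc25b, 0.36 higher), beside 5.28% of all genes. At 24 h 3 were called, of which Plk1 (-0.25) and Pkmyt1 (-0.18) were lower and Ccnb2 (0.35) higher. Of all genes 11.8% were lower and 12.9% higher there. Ccnb2 was not called by limma under 75th percentile scaling (adjusted p = 0.0697).

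Microtubule severing genes, listed because LZTS2 restrains katanin, had 3 of 9 members lower with the eluate at 6 h, beside 8.35% of all genes. Among them were Katna1, the catalytic ATPase of katanin (-0.25), and Katnal2 (-0.59), whose call was lost under normexp background correction and without the filter on dim probes. With WS1442 at 6 h the only call was Katnal1, 0.33 higher (adjusted p = 0.0339 by limma), where 5.28% of all genes were called. At 24 h the fidgetin-like Fignl1 was lower with both treatments (-0.33 with WS1442 and -0.20 with the eluate). Fignl2 was lower with the eluate (-0.41, not called under normexp). Lower shares at 24 h were 11.8% of all genes with WS1442 and 8.55% with the eluate.

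The beta-catenin list, which holds partners of LZTS2 and Wnt target genes, moved in both directions. With the eluate at 6 h, 7 of 18 were lower and 2 higher, beside 8.35% and 8.68% of all genes. Among the Wnt targets, Dkk1 (-0.89), Ccnd1 (-0.74), Znrf3 (-0.62), Sp5 (-0.59) and Myc (-0.40) fell. Axin2 (0.20), Rnf43 (0.37), Nkd1 (0.11), Notum (0.02) and Lgr5 (-0.03) were not called. Tcf7 (-0.29) and Axin1 (-0.21) also fell, while the transcription factors Lef1 (0.55) and Tcf7l1 (0.53) rose. At 24 h with the eluate, Dkk1 (0.88) and Sp5 (0.18) were above DMSO, as were Rnf43 (0.56) and Gsk3b (0.23). Myc (-1.01), Tcf7 (-0.38) and Ccnd1 (-0.29) were below, where 9.6% of all genes were higher and 8.55% lower. The calls of Sp5 and Gsk3b at 24 h were lost under 75th percentile scaling, that of Gsk3b at 24 h and that of Znrf3 at 6 h without the filter on dim probes. With WS1442 at 6 h Lef1 (0.72) and Tcf7l1 (0.57) were higher and Dkk1 (-0.75) and Ccnd1 (-0.30, not called under normexp) lower. There 3.95% of all genes were higher and 1.33% lower. At 24 h with WS1442, Znrf3 (-0.92), Myc (-0.57) and Tcf7 (-0.34) were lower, as were 11.8% of all genes. Ctnnb1, which encodes beta-catenin, was not called in any of the 4 comparisons with DMSO.

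**Figure D4:**
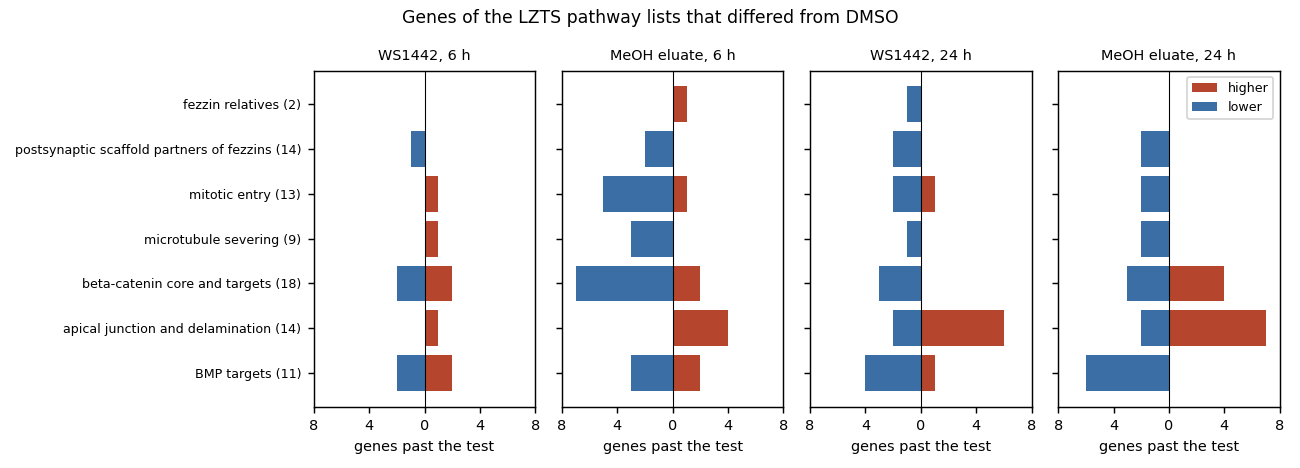
Number of genes (x axis) of each list (y axis, number tested in brackets) that passed an adjusted p of 0.05 against DMSO, higher to the right in red and lower to the left in blue, for both treatments and time points. The beta-catenin list has the most lower genes with MeOH eluate at 6 h (7 of 18) and the apical junction list the most higher ones at 24 h (7 of 14). Of all genes 8.35% were lower with MeOH eluate at 6 h and 9.6% higher with it at 24 h.

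Apical junction genes, listed because LZTS1 acts there in neural progenitors, held more members that rose than fell. With the eluate 4 of 14 were higher and 0 lower at 6 h, and 7 were higher and 2 lower at 24 h. The shares of all genes were 8.68% and 8.35% at 6 h, and 9.6% and 8.55% at 24 h. With WS1442 the counts were 1 and 0 at 6 h (Pard3, 0.40, not called under normexp or without the filter on dim probes) and 6 and 2 at 24 h. Beside these stood 3.95% and 1.33% of all genes at 6 h, and 12.9% and 11.8% at 24 h. The largest rise was in Cdh1, E-cadherin (0.91 with the eluate and 0.29 with WS1442 at 24 h), together with Tjp1, the tight junction protein ZO-1 (0.50 and 0.26), and Camsap3, which anchors microtubule minus ends (0.49 with each). The lower members were Cdh2, N-cadherin (-0.53 and -0.31), and Snai1, a repressor of Cdh1 (-0.76 and -0.66). After scaling to the 75th percentile the higher counts were 0 with the eluate at 6 h, 5 with the eluate at 24 h and 3 with WS1442 at 24 h, where the Cdh1 call was among those lost. The 6 h count with the eluate was 2 under normexp and 1 without the filter on dim probes. The list's median at 24 h was 0.26 with the eluate and 0.12 with WS1442, beside 0.01 and 0.05 over all genes.

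Of the BMP targets, 6 of 11 were lower and 0 higher with the eluate at 24 h, with a list median of -0.62. Of all genes 8.55% were lower and 9.6% higher there. The lower targets were Msx1 and Msx2 (both -1.18), Hey1 (-1.19), the inhibitory Smads Smad7 (-0.98) and Smad6 (-0.62), and Id2 (-0.30). At 6 h the list was split, as Msx1 (-1.54), Hey1 (-0.96) and Smad7 (-0.58) were lower and Id2 (0.89) and Atoh8 (0.77) higher with the eluate. In that comparison 8.35% of all genes were lower and 8.68% higher. With WS1442 the same 6 h split held 2 lower genes, Msx1 (-0.47) and Smad7 (-0.41), and 2 higher ones, Id2 (0.52) and Atoh8 (0.65). The shares of all genes were 1.33% and 3.95%. With WS1442 at 24 h 4 of 11 were lower, Smad7 (-0.66), Atoh8 (-0.54), Msx1 (-0.48) and Msx2 (-0.36), and Bambi, a decoy receptor, was 1.07 higher. Of all genes 11.8% were lower and 12.9% higher there. The calls of Id2 at 24 h and of Hey1 at 6 h with the eluate were lost under 75th percentile scaling, normexp background correction and no filter on dim probes. Id1, Id3 and Id4, among the most direct BMP targets, were not called in any of these comparisons, though Id1 and Id4 were measured imprecisely. At 6 h Id1 differed by -0.80 (SE 0.33) with the eluate and 0.00 with WS1442. At 24 h it differed by -0.58 with the eluate and -0.69 with WS1442. Id4 differed by -0.66 (SE 0.31) and -0.32 at 24 h. Id3 lay between -0.15 and 0.02 throughout.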

How the data were processed

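RNA of 16 mESC cultures was labelled with Cy3 and hybridised to 1-colour Agilent arrays. As deposited by the authors, the spot intensities came from Feature Extraction 11.5.1.1 (design coordinates mm9), background corrected within the array and not normalized between arrays. A second table deposited by the authors holds intensities after quantile normalization. Its columns each matched their own array best, and its Lzts1 and Lzts2 values differed by at most 0.026 on the log2 scale from those used here.

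The 16 arrays were quantile normalized together on the log2 scale, spots repeated for 300 probes were averaged, and control and non-uniform spots (3 to 25 per array) were left out. Probes had to stand well above background in all arrays of some group, which gave 36716 probes of 29231 genes. Symbols came from the array's gene name column for 12642 probes, from RefSeq accessions for 29853, and from further accessions of the probe for 2662. Values of 1 listed gene are not reported here. Names and neighbours followed RefSeq (GRCm38.p6).

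Limma 3.58.1 in R 4.3.3 was fitted to 6 group means (lmFit, eBayes with trend), and p-values were adjusted by Benjamini-Hochberg over all kept probes. Nothing in the labels ties equal replicate numbers to a shared batch, and the replicates of a group may be technical, in which case p-values measure that spread only. In simulated data 137 to 149 of 200 probes changed by 1 log2 unit were recovered at 24 h. Figures were drawn in Python 3.11.15. The number of arrays limits the precision. Named were all Lzts1 and Lzts2 probes, genes of the fixed lists and markers, the 5 genes most like each kept probe, and the 3 nearest genes on each side. The probes, lists and tests were chosen with earlier results of these data known. Alternatives covered scaling, background correction, filters, the deposited table, probe choice, blocks, array weights, Student's t-test, which the methods name for pairwise comparisons, and each array left out.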

Additional observations from a re-analysis of the deposited data

Results flagged for a closer look

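For 2 probes every WS1442 array lay on 1 side of the DMSO mean at 6 h and on the other side at 24 h. The share of all probes with this pattern was not counted, and each DMSO mean rests on 2 arrays. WS1442 and DMSO arrays overlapped for Lzts2 at both time points and for the XM_006509606 probe at 24 h. Lzts1 read by the XM_006509606 probe differed from DMSO by -0.88 at 6 h and was 0.26 higher at 24 h. Lzts2 was 0.24 higher at 6 h and differed by -0.033 at 24 h. The difference between the time points was not tested in either case. Without DMSO replicate 1 of 24 h, both 24 h values changed sign, to -0.073 for the Lzts1 probe and 0.012 for Lzts2.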

How the results depend on the processing

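At 24 h the fall of the ENSMUST00000185176 probe of Lzts1 with MeOH eluate held under every alternative except the methods' t-test (-1.15, adjusted p = 0.0578), and its difference between eluate and WS1442 held under all. Its smaller fall with WS1442 was not called with the replicate block (-0.19, adjusted p = 0.13), the slide row as block (-0.20, 0.0515) or the methods' t-test (-0.21, 0.152). The XM_006509606 difference between eluate and WS1442 was -0.59 (0.0597) by that t-test. That t-test called 7, 203 and 245 of 36716 probes after adjustment for WS1442, eluate and eluate against WS1442, and 9890, 8282 and 9570 at an unadjusted p under 0.05. Lzts2 became called with the eluate when 24 h was fitted alone (0.18, adjusted p = 0.0285) or with the slide row as block (0.18, 0.0339), and against WS1442 in both (0.21, 0.0119 and 0.22, 0.0171) and with the replicate block (0.21, 0.0313). The NM_199364 difference with WS1442 turned to -0.051 under 75th percentile scaling and -0.0053 under normexp. Same-numbered samples deviated together in 1 of 7 pairs at 6 h and 0 of 7 at 24 h (r over 0.1). Pairs of unlike number did so in 2 of 14 at 6 h and 4 of 14 at 24 h. No pairing by number was seen, but so few pairs cannot exclude one. The replicate block changed no other call of the 4 probes.

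Without one array at a time, where an arm of 1 array is assumed to vary like the other groups, the 24 h values ran for WS1442 from -0.28 to -0.13 (ENSMUST00000185176), -0.073 to 0.59 (XM_006509606), -0.17 to 0.18 (NM_199364) and -0.078 to 0.012 (Lzts2). For the eluate they ran from -1.22 to -1.07, -0.66 to 0.0022, -0.48 to -0.12 and 0.13 to 0.22. For the eluate against WS1442 they ran from -0.98 to -0.91, -0.64 to -0.55, -0.39 to -0.18 and 0.20 to 0.22.

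The 6 h differences of Lzts1 from DMSO kept their sign. Between the treatments those of ENSMUST00000185176 and XM_006509606 did too, while that of NM_199364 ran from -0.16 to 0.015 without one array. Under 75th percentile scaling the 6 h values were -1.21 (WS1442), -3.35 (eluate) and -2.14 (eluate against WS1442) for ENSMUST00000185176. For XM_006509606 the eluate value was -1.69, and Lzts2 differed by -0.14 between the treatments. Normexp was run with an offset of 50 on every signal, which weighs most on dim ones. Under it the 6 h values were -1.21, -3.04 and -1.83 for ENSMUST00000185176 and -0.68, -1.31 and -0.63 for XM_006509606. Those of NM_199364 against DMSO were -0.21 and -0.25. Without one array the eluate value of ENSMUST00000185176 ran from -3.49 to -3.43.

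Under 75th percentile scaling 4, 4 and 7 genes of the pathway lists were higher with the eluate at 6 h, WS1442 at 24 h and the eluate at 24 h. Without one array, which was added after seeing the data, 3 to 8 were higher and 1 to 5 lower with WS1442 at 6 h, 5 to 11 and 12 to 23 with the eluate at 6 h, 7 to 10 and 9 to 17 with WS1442 at 24 h, and 8 to 12 and 11 to 18 with the eluate at 24 h. With 2 DMSO arrays per time point, the size of difference that passed the threshold varied between probes. At 24 h a log2 difference of -0.21 was called for ENSMUST00000185176 with WS1442. One of -0.33 was not called for XM_006509606 with the eluate.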
